A study of Mus musculus with 8 samples.

Results

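Collagen genes were taken as all genes whose symbol on the array is Col, a chain type number, the letter a and a chain number, and 42 of the 18193 genes measured carried such a symbol. They were covered by 82 probe sets, and the probe set whose mean across all 8 arrays was highest stood for its gene. By the structure of their proteins, 33 of the 42 fell into 4 classes: 11 fibrillar chains, 9 network chains, 9 fibril-associated chains and 4 membrane chains. The remaining 9 were 5 beaded filament chains of collagen VI, the 2 multiplexins Col15a1 and Col18a1, the anchoring fibril chain Col7a1 and Col26a1.

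The arrays measured RNA from sorted GFP-positive cells of E13.5 mouse embryos (mid-gestation), with 4 arrays for cortex and 4 for lung. All embryos came from homozygous Tie2-GFP mice, whose fluorescent protein is under the promoter of Tie2, an endothelial receptor, so both tissues carried the same transgene and no treatment separated them. Cortex had been dissected free of meninges and choroid plexus, both tissues had been dissociated with collagenase, and the cells of 1 litter (10 to 13 embryos) formed 1 sample. The samples of each tissue were numbered 72, 22, 19 and 18, and values are log2 expression values (RMA), in which differences near the lower end of the scale are compressed.

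Collagens are trimers of chains with long glycine-rich triple helices. Fibrillar collagens make the ropes of connective tissue and are made mainly by fibroblasts, cartilage cells and other mesenchyme. Network collagens include collagen IV, the sheet of every basement membrane, which endothelial cells lay down around vessels. Fibril-associated collagens sit on the surface of fibrils, membrane collagens span the plasma membrane, and multiplexins belong to vascular and epithelial basement membranes.

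The medians of the arrays ran from 6.59 to 6.72, and with 4 arrays for each tissue the precision is limited by their number. For the samples numbered 19 and 18 the description field gave the opposite tissue to the title. The mean of 10 neural marker genes lay between 11.43 and 11.96 on the arrays titled cortex and between 6.13 and 6.58 on those titled lung, and the titles were followed. Endothelial markers were present in both tissues, but the mean of 26 of them ranged from 9.39 to 11.32 in cortex and from 11.15 to 11.75 in lung. Cortex 18 (9.39) and cortex 72 (9.78) lay lowest. In sorted material of this kind, fewer cells of a type and less RNA per cell cannot be told apart. Nothing in the labels gives a batch.

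Most collagens that differed were higher in the lung cells, and the network class held no call. A gene was called where its limma p, adjusted by Benjamini-Hochberg over all genes, was below 0.05. Of the 42 collagens, 17 were called towards lung, 4 towards cortex and 21 in neither direction. Over all genes, 7.71% were called towards lung and 10.4% towards cortex, so the share of collagens called towards lung was 40.5% and the share towards cortex, 9.52%, lay near the background. The median difference, cortex minus lung, was -0.54 log2 units over the collagens and -0.09 over all genes. Of the 26 pan-endothelial markers, 6 (23.1%) were called towards lung and 0 towards cortex, with a median of -1.08, so a shift towards lung was not particular to the collagens. For 16 collagens every lung array lay above every cortex array, as for 12.0% of all genes, and for 4 the reverse held, as for 12.5%. After every array was shifted to the same pan-endothelial mean, 6 collagens were called towards lung and 4 towards cortex, with the median over all genes at 1.03 and the same SE (0.598) for every gene. Of all genes, 0.781% were then called towards lung and 20.4% towards cortex. All 6 and all 4 were among the calls on the deposited scale. The shift moved every gene towards cortex by the same amount. With an equal SE, a call after it followed from the size of the deposited difference alone and was no separate check of a gene.

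**Figure D1:**
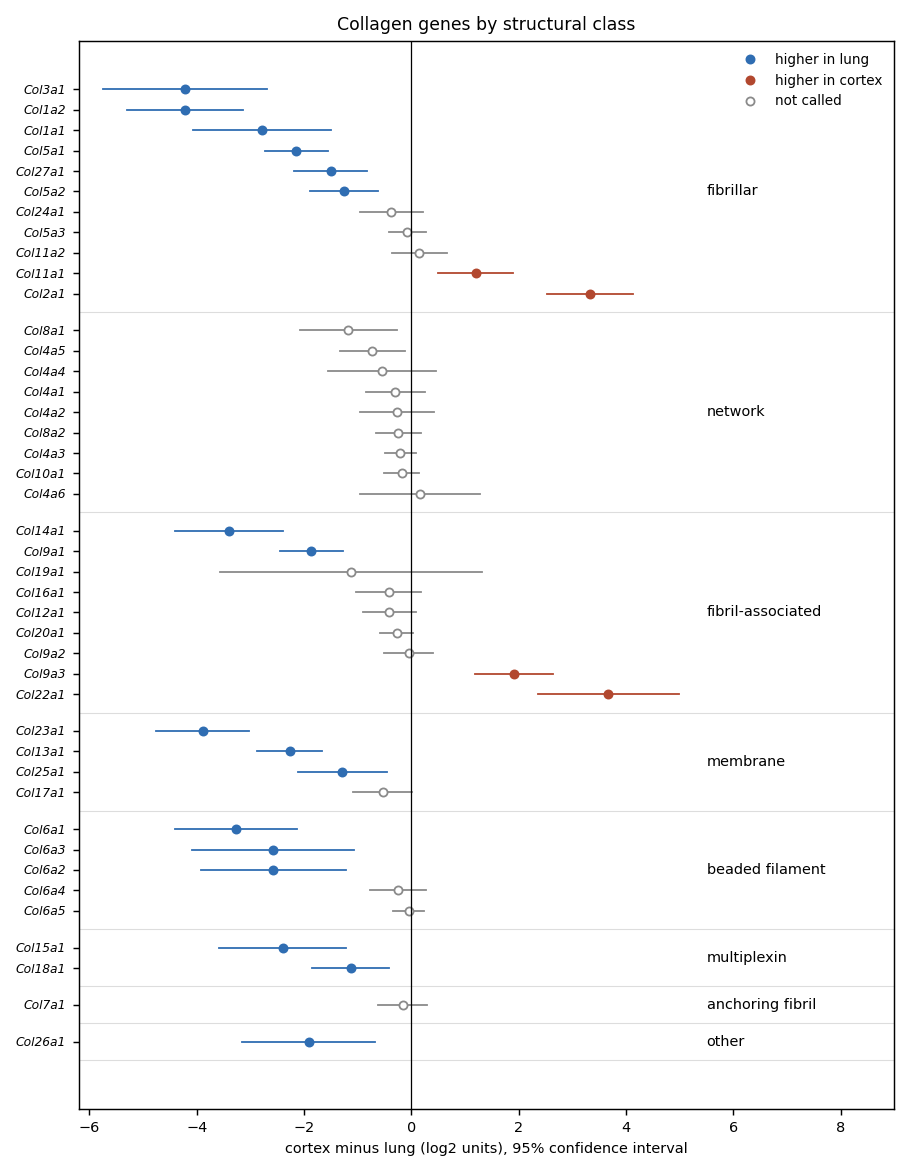
Difference between cortex and lung in log2 units for all 42 collagens, grouped by class, with 95% confidence intervals from limma. Blue points are called higher in lung, red points higher in cortex and open grey points are not called. The fibrillar class spans from -4.22 (Col3a1) to 3.33 (Col2a1), and all 9 network chains are open points.

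By class, the fibrillar chains divided into 6 called towards lung, 2 towards cortex and 3 in neither direction, with a median of -1.25. The network chains gave 0 limma calls in either direction, with a median of -0.27, although Col8a1 and Col4a5 had unadjusted p of 0.0164 and 0.0234. The fibril-associated chains gave 2 calls towards each tissue and 5 uncalled chains, with a median of -0.41. Of the membrane chains, 3 were higher in lung and 1 was not called, with a median of -1.78. Among the remaining 9 collagens, 6 were higher in lung and 0 higher in cortex. Differences between classes were not tested.

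Among fibrillar collagens, the chains of types I and III were higher in lung. Col3a1, the chain of the extensible fibrils of vessel walls and lung, lay at 7.28, 7.35, 8.68 and 6.35 on cortex arrays 72, 22, 19 and 18. On the lung arrays in the same order it lay at 12.84, 11.80, 12.03 and 9.88, so the tissues did not overlap and lung 18 was the lowest of the lung arrays. The difference was -4.22 ± 0.67 (SE), or 18.6-fold higher in lung (limma adjusted p = 0.00288). Col1a2, the second chain of type I collagen, lay at 7.08, 5.95, 7.60 and 6.42 in cortex and at 11.77, 11.12, 11.23 and 9.80 in lung. It was also 18.6-fold higher in lung, at -4.22 ± 0.48 (SE, limma adjusted p = 0.000442), with cortex 19 again highest in its group and lung 18 lowest. Col1a1, the major chain of type I, lay at 8.31, 7.91, 10.05 and 8.74 in cortex and at 12.47, 11.58, 11.85 and 10.25 in lung. The tissues came close at lung 18 (10.25) and cortex 19 (10.05) but did not overlap. The difference was -2.78 ± 0.56 (SE), 6.88-fold (limma adjusted p = 0.00985). It was not called when both cortex arrays with the lowest pan-endothelial means, 72 and 18, were left out (-2.56, adjusted p = 0.104).

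To show what lies before the starts of these genes, the 250 bases upstream of the RefSeq start are printed for the 2 fibrillar genes with the largest difference towards lung that the promoter table holds (build GRCm38.p6). Capitals mark matches on either strand to the core letters of the TATA box (TATAAA), of the so-called CCAAT box and of the GC box (GGGCGG). Col1a2 is at chr6:4505368-4505617 (plus strand) and Col3a1 at chr1:45311288-45311537 (plus strand).
Col1a2: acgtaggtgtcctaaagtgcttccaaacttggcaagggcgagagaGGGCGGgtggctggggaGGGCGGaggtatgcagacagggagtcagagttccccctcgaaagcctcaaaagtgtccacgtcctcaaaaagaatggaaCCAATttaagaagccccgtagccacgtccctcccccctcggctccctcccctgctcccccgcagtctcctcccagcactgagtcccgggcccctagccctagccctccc
Col3a1: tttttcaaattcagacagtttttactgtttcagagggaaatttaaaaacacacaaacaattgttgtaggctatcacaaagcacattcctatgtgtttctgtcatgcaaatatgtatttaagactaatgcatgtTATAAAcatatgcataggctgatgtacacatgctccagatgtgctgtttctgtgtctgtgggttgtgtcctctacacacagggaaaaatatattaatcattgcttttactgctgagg
Although both genes were 18.6-fold higher in lung, their upstream windows shared none of the 3 motifs. The Col1a2 window held 2 GGGCGG matches and 1 CCAAT match, starting 109 bases before the start, with a GC content of 62.0%. That of Col3a1 held a TATAAA match 117 bases before the start, 0 of the other motifs and a GC content of 35.2%. No printed motif matches overlapped.

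The fibril-nucleating type V chains followed in the same direction with smaller differences. Col5a1, which sets fibril number and diameter, was 4.42-fold higher in lung (7.39 ± 0.27 in cortex and 9.53 ± 0.49 in lung, mean ± SD, n = 4; limma adjusted p = 0.000644). Col5a2, its partner chain, was 2.38-fold higher in lung (9.91 ± 0.41 and 11.16 ± 0.45, adjusted p = 0.0148). Its lowest cortex array was number 18 (9.30), with the other cortex arrays between 10.07 and 10.17. Without cortex 72 and 18 its call ended (-1.03, adjusted p = 0.0993). Col27a1, a later-described fibrillar chain known from cartilage, was 2.84-fold higher in lung (7.16 ± 0.45 and 8.66 ± 0.49, adjusted p = 0.00906). After pan-endothelial scaling none of Col5a1, Col5a2 and Col27a1 was called (-1.03, -0.13 and -0.39), while Col3a1 (-3.10), Col1a2 (-3.10) and Col1a1 (-1.66) still were.

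Of the fibrillar chains known from cartilage, Col2a1 and Col11a1 went the other way. Col2a1, the main fibrillar chain of cartilage, also known from embryonic neuroepithelium, lay at 10.44, 9.90, 9.28 and 10.03 on cortex arrays 72, 22, 19 and 18. On lung arrays 72, 22, 19 and 18 it lay at 7.53, 6.43, 6.23 and 6.15, so every cortex array lay above every lung array. The difference was 3.33 ± 0.35 (SE), 10.03-fold higher in cortex (limma adjusted p = 0.000314). Col11a1, which nucleates type II fibrils, lay at 9.16, 8.57, 8.47 and 8.62 in cortex and at 8.28, 7.19, 7.69 and 6.87 in lung. The gap between lung 72 and cortex 19 was small, and the difference was 1.20 ± 0.31 (SE, limma adjusted p = 0.0285), 2.29-fold. It lost its call when cortex 72, 22 or 18 or lung 22, 19 or 18 was left out (0.98 to 1.26, adjusted p from 0.054 to 0.079). Nor was it called without cortex 72 and 18 (1.01, adjusted p = 0.195), with the mean over its probe sets (1.02, adjusted p = 0.0631) or with its second probe set (0.84, adjusted p = 0.21). The third chain of type XI fibrils besides Col2a1 and Col11a1, Col11a2, averaged 4.98 ± 0.34 in cortex and 4.83 ± 0.32 in lung and was not called (adjusted p = 0.682). Col5a3 (4.63 ± 0.20 and 4.71 ± 0.15) and Col24a1 (3.90 ± 0.15 and 4.28 ± 0.54) were not called either, with adjusted p of 0.762 and 0.358.

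Every one of these cortex-higher chains was measured beside the neural transcripts of the cortex arrays, whose list mean was 11.76 ± 0.25 against 6.39 ± 0.20 in lung. Within cortex, the neural mean and Col2a1 were both highest on number 72 (11.96 and 10.44) and lowest on number 19 (11.43 and 9.28). Among 8 cartilage markers there were 3 calls towards cortex and 1 towards lung, where 10.4% and 7.71% of all genes were called. Those higher in cortex were Sox9, Sox5 and Sox6, transcription factors that cartilage shares with neural progenitors. The proteoglycan Acan (5.10 and 5.84) and the matrilin Matn1 (4.37 and 4.76), which define cartilage, were low in both tissues, and the link protein Hapln1 was higher in lung (7.77 ± 0.96 and 11.92 ± 0.16). The part of the neural transcripts in the collagen differences was not tested. Of the 4 genes called towards cortex, Col11a1 is the one in the promoter table, and its 250 upstream bases (chr3:114030290-114030539, plus strand) are shown to set beside the lung-higher genes, with the same motifs in capitals.
Col11a1: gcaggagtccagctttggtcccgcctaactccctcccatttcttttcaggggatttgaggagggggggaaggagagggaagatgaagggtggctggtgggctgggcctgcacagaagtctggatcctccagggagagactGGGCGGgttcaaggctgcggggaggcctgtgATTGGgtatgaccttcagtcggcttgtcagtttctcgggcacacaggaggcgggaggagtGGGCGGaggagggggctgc
This window held the same kinds of motif as that of Col1a2, namely 2 GGGCGG matches and 1 CCAAT match (read on the other strand, 79 bases before the start), although the genes differed in opposite directions. Of 36 windows of 33 collagens, 58.3% held GGGCGG, 36.1% CCAAT and 13.9% TATAAA. Of all 32851 windows of the same length, the shares were 32.7%, 33.9% and 12.4%. A match is a description of the letters and was not tested for binding.

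**Figure D2:**
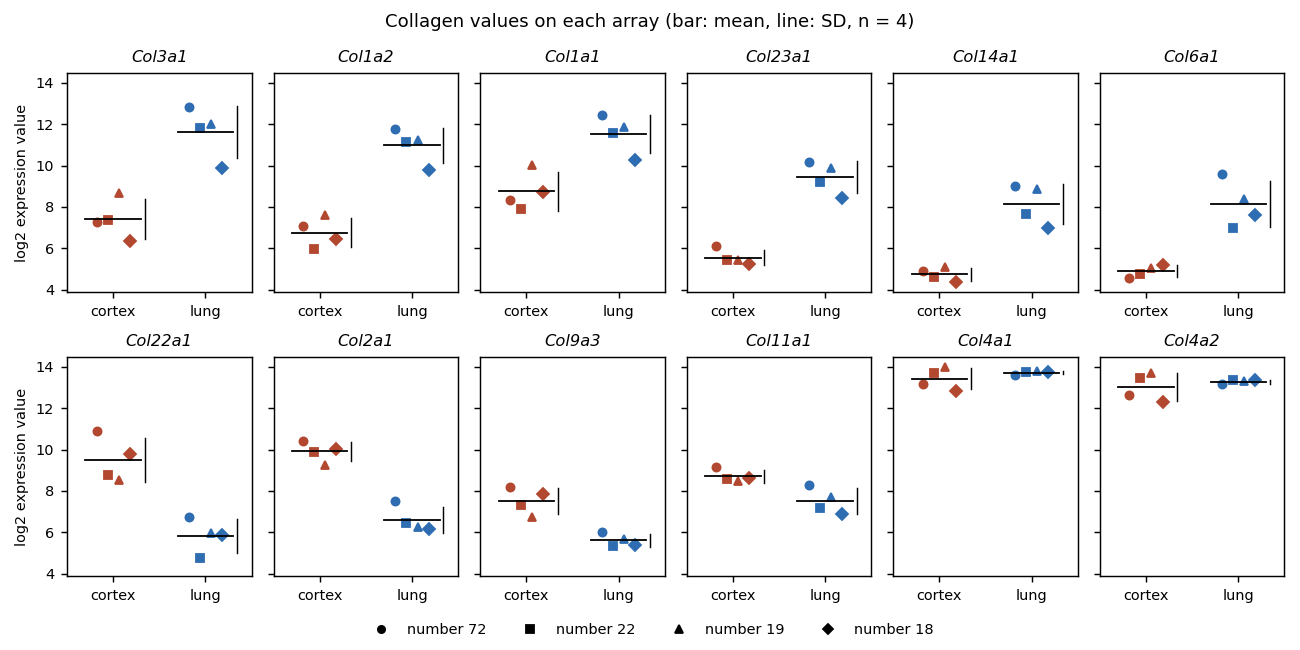
Log2 expression values of 12 collagens on each array, cortex in red and lung in blue, with a marker shape for each sample number, a bar for the mean and a line for the SD (n = 4). Col3a1, Col1a2, Col1a1, Col23a1, Col14a1 and Col6a1 lie higher on every lung array, Col22a1, Col2a1, Col9a3 and Col11a1 lie higher on every cortex array, and the cortex values of Col4a1 and Col4a2 fall on either side of the lung values.

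Collagen IV, the endothelial basement membrane collagen, did not differ by a call. Col4a1 lay at 13.20, 13.71, 13.99 and 12.85 on cortex arrays 72, 22, 19 and 18 and at 13.62, 13.76, 13.79 and 13.77 on the lung arrays. The lung values were close together (SD 0.08), whereas the cortex values were further apart (SD 0.51) and lay both below and above them. Its difference was -0.30 ± 0.24 (SE), with a 95% interval from -0.85 to 0.25 (limma adjusted p = 0.434). Col4a2, the partner chain in the same trimer, lay at 12.65, 13.46, 13.72 and 12.29 in cortex and at 13.16, 13.37, 13.30 and 13.35 in lung. Its difference was -0.27 ± 0.30 (SE), with an interval from -0.96 to 0.42 (adjusted p = 0.578). On both genes cortex 72 and 18 lay below every lung array and cortex 19 above every lung array. These were also the cortex arrays with the lowest (9.78 and 9.39) and the highest (11.32) pan-endothelial mean. Without cortex 72 and 18 the differences turned to 0.12 for Col4a1 and 0.29 for Col4a2, and after pan-endothelial scaling to 0.82 and 0.85, in neither case with a call.

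Col4a1 and Col4a2 lie head to head, and their RefSeq promoter windows on chromosome 8 share 78 bases. The annotated first bases lie at 11312826 on the minus strand for Col4a1 and at 11312805 on the plus strand for Col4a2, so that the annotated transcripts overlap by 22 bases. Short stretches from the Col4a2 window are given, to show letters close to the paired starts. The CCAAT match nearest to the Col4a2 start, 32 bases before it, lies in chr8:11312763-11312786. The GGGCGG match 48 bases before that start is read on the other strand and lies in chr8:11312748-11312771. Both stretches are printed on the plus strand (build GRCm38.p6), with the motif in capitals.
CCAAT stretch: gaggagctccCCAATttgttggcg
GGGCGG stretch: ctgagcgcgCCGCCCgaggagctc

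The other 7 network chains were not called. They were the collagen IV chains Col4a3 to Col4a6, which replace or accompany the major chains in kidney, lung and other epithelial basement membranes, and the short-chain collagens Col8a1, Col8a2 and Col10a1. Their values ran from 3.93 to 7.82 and their differences from -1.17 (Col8a1) to 0.16 (Col4a6), with adjusted p from 0.0748 to 0.842. Col4a5 lay at 6.66 ± 0.18 in cortex and 7.39 ± 0.55 in lung, and lung 18 (6.62) lay among the cortex arrays. It was called towards lung without lung 18 (-0.99, limma adjusted p = 0.00748). With all arrays it was called after median centring (-0.94, adjusted p = 0.0145) and with array quality weights (-0.97, adjusted p = 0.0059). Col8a1, a collagen of vessel walls and Descemet's membrane, was called without lung 72 (-1.48, adjusted p = 0.0242) and depended on the probe set. A second of its 3 probe sets lay between 3.29 and 3.43 in cortex and at 5.65, 5.61, 6.16 and 3.72 on lung arrays 72, 22, 19 and 18, with a call (-1.93, adjusted p = 0.03 over all probe sets). On the chosen probe set, by contrast, lung 18 was the highest array (7.60).

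Fibril-associated collagens differed in both directions. Col14a1, which binds fibrils of type I collagen in soft connective tissue, lay at 4.90, 4.63, 5.09 and 4.35 on the cortex arrays and at 9.01, 7.67, 8.87 and 6.999 on the lung arrays. No lung array came within 1 unit of a cortex array, and the difference was -3.39 ± 0.44 (SE), 10.5-fold (limma adjusted p = 0.000966). This size rested on 1 of 3 probe sets: the others were at -1.17 and -0.56 without a call, and with the probe set of median mean the gene was not called (-0.56, adjusted p = 0.146). Col9a1, a chain of the collagen that coats type II fibrils, was 3.63-fold higher in lung (6.08 ± 0.32 and 7.94 ± 0.45, adjusted p = 0.00132). Its other probe set lay at 4.71 ± 0.24 and 5.47 ± 0.71 without a call, and after pan-endothelial scaling Col9a1 was not called (-0.74, adjusted p = 0.274), whereas Col14a1 was (-2.27).

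Col22a1, a collagen known from tissue junctions such as muscle to tendon, had the largest difference of any collagen towards cortex. It lay at 10.88, 8.75, 8.55 and 9.80 on cortex arrays 72, 22, 19 and 18 and at 6.72, 4.74, 5.98 and 5.86 on the lung arrays. Every cortex array lay above every lung array, with a difference of 3.67 ± 0.58 (SE), 12.7-fold (limma adjusted p = 0.00273). Its cortex values were higher on the arrays with low pan-endothelial means, 72 and 18, than on 22 and 19. Col9a3, another chain of collagen IX, lay at 8.21, 7.30, 6.74 and 7.83 in cortex and at 5.9998, 5.35, 5.70 and 5.37 in lung, in the same order of cortex arrays as Col22a1. It was 3.78-fold higher in cortex (1.92 ± 0.32, SE; limma adjusted p = 0.00362). On the deposited scale the 3 chains of collagen IX differed in direction, with Col9a1 called towards lung, Col9a3 towards cortex and Col9a2 between 5.11 and 5.77 on all arrays without a call (-0.05, adjusted p = 0.875).

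The other fibril-associated chains were not called. Col20a1 averaged 6.82 ± 0.10 in cortex and 7.09 ± 0.16 in lung, and its arrays did not overlap (adjusted p = 0.202). Col19a1 varied more between arrays than between tissues, at 5.56, 5.54, 6.82 and 8.73 on cortex arrays 72, 22, 19 and 18 and at 5.54, 9.60, 6.52 and 9.45 on the lung arrays (adjusted p = 0.509). Its highest arrays were lung 22, lung 18 and cortex 18. The mean of the bioB hybridisation control, a bacterial transcript added at a fixed amount, was highest on lung 18 (8.95) and lung 22 (8.63) and lay between 7.23 and 8.06 on the others. Its part in the Col19a1 values was not tested. Col16a1, Col12a1 and Col9a2 lay between 5.11 and 7.23, with differences of -0.42 to -0.05. With the mean over its probe sets Col12a1 was called towards lung (-0.48, limma adjusted p = 0.0494).

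Membrane collagens were higher in lung for 3 of 4 chains. Col23a1, a transmembrane collagen that binds integrin, lay at 6.10, 5.42, 5.43 and 5.25 on cortex arrays 72, 22, 19 and 18 and at 10.18, 9.23, 9.91 and 8.43 on the lung arrays. The lowest lung array lay more than 2 units above the highest cortex array, and the difference was -3.89 ± 0.38 (SE), 14.8-fold (limma adjusted p = 0.000206). All 3 of its probe sets were called in the same direction, from -3.89 to -2.92. Col13a1, a transmembrane collagen of cell adhesion sites and the neuromuscular junction, was 4.82-fold higher in lung (5.59 ± 0.28 and 7.86 ± 0.50, adjusted p = 0.000509). Col25a1, a transmembrane collagen first found in amyloid plaques, was 2.44-fold higher in lung (7.61 ± 0.53 and 8.89 ± 0.64, adjusted p = 0.0409). Col25a1 lost its call when cortex 72, 22 or 19 or lung 72, 19 or 18 was left out (-1.42 to -0.98, adjusted p from 0.0561 to 0.0987). Its other probe set showed a smaller difference without a call (-0.25, adjusted p = 0.376). Col17a1, the hemidesmosome collagen of epithelia, stayed between 3.37 and 4.77 on all arrays without a call (adjusted p = 0.172). After median centring it was called towards lung (-0.74, limma adjusted p = 0.0188). After pan-endothelial scaling Col23a1 kept its call (-2.77), while Col13a1 (-1.15) and Col25a1 (-0.17) did not. As the membrane gene with the largest difference, Col23a1 is shown by its 250 bases upstream of the RefSeq start (chr11:51289670-51289919, plus strand, build GRCm38.p6), motif in capitals.
Col23a1: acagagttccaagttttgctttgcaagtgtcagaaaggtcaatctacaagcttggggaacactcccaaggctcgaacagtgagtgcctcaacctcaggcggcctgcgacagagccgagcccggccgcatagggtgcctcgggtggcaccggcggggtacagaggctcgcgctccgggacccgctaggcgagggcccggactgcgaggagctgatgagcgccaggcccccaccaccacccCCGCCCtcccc
It held 1 GGGCGG match, read on the other strand 11 bases before the start, and 0 matches to TATAAA or CCAAT, with 18 CpG dinucleotides and a GC content of 66.0%.

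The 3 common chains of collagen VI, which assemble together into beaded filaments around many cell types, were all higher in lung. Col6a1 lay at 4.54, 4.74, 5.02 and 5.20 on cortex arrays 72, 22, 19 and 18 and at 9.61, 6.97, 8.37 and 7.61 on the lung arrays, without overlap. It was 9.61-fold higher in lung (-3.26 ± 0.50, SE; limma adjusted p = 0.00245). Col6a2 was 5.93-fold higher in lung (6.47 ± 0.74 and 9.03 ± 1.18, adjusted p = 0.0177) and Col6a3 5.98-fold (4.75 ± 0.58 and 7.33 ± 1.46, adjusted p = 0.0286). For Col6a3 lung 18 lay at 5.30, below cortex 19 at 5.55, and the other lung arrays lay between 7.37 and 8.70. Col6a3 lost its call when cortex 72, 22 or 18 or lung 72, 22 or 19 was left out (-2.59 to -2.12, adjusted p from 0.0545 to 0.0777). Without cortex 72 and 18 those of Col6a2 and Col6a3 both ended, and of the 3 chains only Col6a1 was called after pan-endothelial scaling (-2.15). The alternative chains Col6a4 (4.19 ± 0.14 and 4.44 ± 0.46, adjusted p = 0.485) and Col6a5 (3.73 ± 0.08 and 3.78 ± 0.13, adjusted p = 0.812) were not called.

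Both multiplexins, known from the basement membranes of vessels, were higher in lung. Col15a1 lay at 9.78, 10.05, 11.56 and 8.60 on cortex arrays 72, 22, 19 and 18 and between 12.30 and 12.49 on the lung arrays. The lung arrays were close to each other (SD 0.08) and the cortex arrays far apart (SD 1.22), and the difference was 5.27-fold (-2.40 ± 0.52, SE; limma adjusted p = 0.014). Col18a1, the precursor of endostatin, lay at 11.20, 11.93, 12.24 and 10.75 in cortex and between 12.45 and 12.88 in lung, a 2.19-fold difference (adjusted p = 0.039). Within cortex both genes took the same order of arrays as the pan-endothelial mean, with 19 highest, then 22, 72 and 18. Without cortex 72 and 18 neither was called, nor after pan-endothelial scaling, which brought Col18a1 to -0.01 and Col15a1 to -1.28. Col18a1 also lost its call when cortex 72 or 18 or any 1 lung array was left out (-1.20 to -0.87, adjusted p from 0.0552 to 0.103). Col26a1 was 3.76-fold higher in lung (6.33 ± 0.23 and 8.24 ± 1.25, adjusted p = 0.0422). Lung 18 lay at 6.45 for this gene, within the cortex arrays, and the call ended without any 1 array other than lung 18 (-1.97 to -1.54, adjusted p from 0.0762 to 0.104), while without lung 18 it was -2.51. Col26a1 was not called after pan-endothelial scaling (-0.79, adjusted p = 0.248) or with its other probe set (-0.51, adjusted p = 0.0652). Col7a1, the anchoring fibril chain of skin, lay at 5.52 ± 0.21 and 5.68 ± 0.34 without a call (adjusted p = 0.608).

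The collagens higher in lung were measured beside mesenchymal transcripts. Of all genes, 7.71% were called towards lung and 10.4% towards cortex. Of 12 fibroblast markers 7 were called, all towards lung. The mean of the 12 ranged from 6.98 to 8.60 in lung and from 6.26 to 6.51 in cortex. Elastin (Eln), the core of elastic fibres, and periostin (Postn), a matrix protein of fibroblasts, were higher in lung by 6.34 and 5.10 log2 units. Lumican (Lum, 3.90 and 4.73) and dermatopontin (Dpt, 3.86 and 4.69) were also called towards lung, with low values in both tissues. Mfap4 (10.12 in cortex and 8.44 in lung) and Prrx1 (8.84 and 6.89), a mesenchymal transcription factor, had a higher mean in cortex without a call. The mean of the fibroblast list was highest on lung 72 (8.60) and lowest among lung arrays on lung 18 (6.98). Among the collagens called towards lung, lung 72 was likewise the highest and lung 18 the lowest lung array for Col1a1, Col1a2, Col3a1, Col5a1, Col5a2, Col6a2, Col6a3, Col14a1, Col23a1 and Col26a1, and not for the other 7. Of 12 mural markers, of pericytes and smooth muscle, Acta2, Anpep and Tagln were called towards lung and Rgs5 towards cortex. Their mean ranged from 6.78 to 8.33 in lung and from 6.73 to 6.93 in cortex. Of 5 mesothelial markers 3 were higher in lung. Of 8 epithelial markers 2 were, Krt18 (6.27 in cortex and 10.21 in lung) and Krt8 (5.18 and 6.36). The lung epithelial factor Nkx2-1 lay at 6.69 in lung and 6.70 in cortex. Control values set the same lung arrays apart. The 3' minus 5' difference of the Gapdh control was lowest on lung 72 (0.91) and highest on lung 18 (1.54). Among lung arrays the bioB mean was likewise lowest on lung 72 (7.30) and highest on lung 18 (8.95). The part of these cells, or of what the controls measure, in the collagen differences was not tested.

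**Figure D3:**
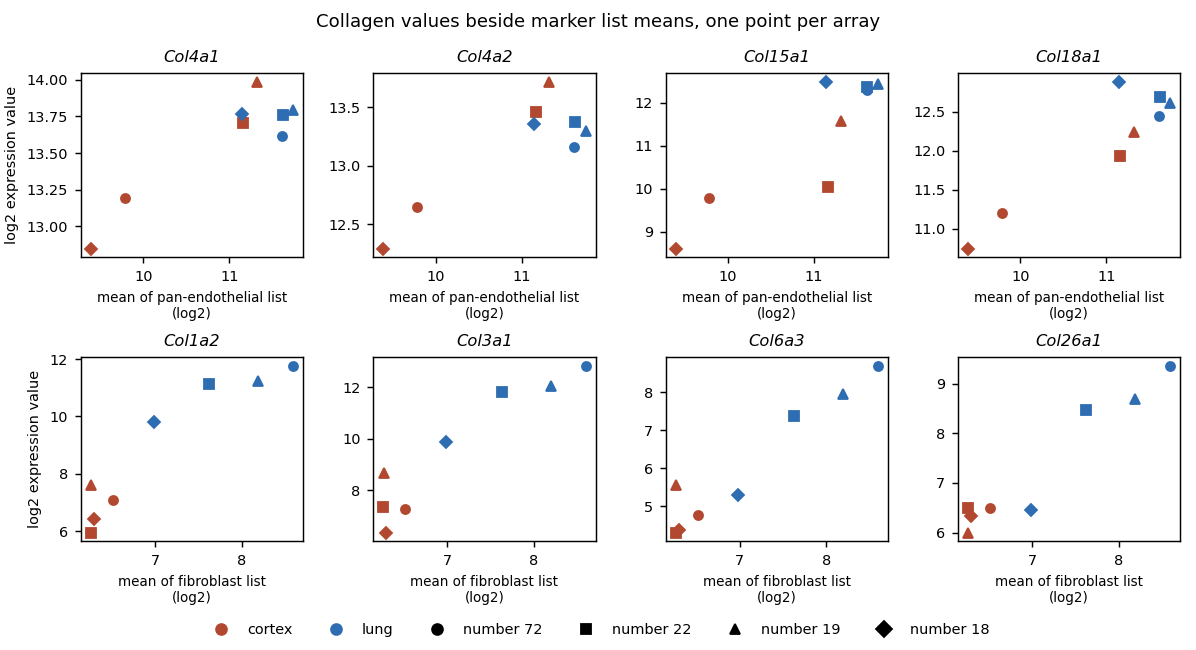
Log2 values of 8 collagens on each array against the mean of a marker list on the same array, cortex in red and lung in blue. In the upper row, against the 26 pan-endothelial genes, cortex 18 and 72 lie lowest on both axes for all 4 genes, and the lung values of Col15a1 stay between 12.30 and 12.49. In the lower row, against the 12 fibroblast genes, lung 72 lies highest and lung 18 lowest of the lung arrays for all 4 genes.

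Of 5 meningeal markers, 1 was called towards each tissue. Zic1, a gene that dorsal neural progenitors share, was higher in cortex (11.61 ± 0.30 and 6.11 ± 1.85) and Aldh1a2 was higher in lung. Crabp2 (10.09 in cortex and 8.30 in lung), Foxc1 (8.47 and 8.98) and Slc6a13 (5.05 and 5.23) were not called. Erythroid markers gave 1 call towards cortex among 5 (Hbb-y), and macrophage markers 2 towards cortex among 6 (Csf1r and Cx3cr1). Over all genes, 10.4% were called towards cortex and 7.71% towards lung. The macrophage mean ranged from 6.04 to 8.85 in cortex and from 5.48 to 6.39 in lung.

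In 7 cases 2 collagen genes are direct neighbours in the RefSeq order of protein-coding genes. Of these pairs, Col3a1 with Col5a2 and Col6a1 with Col6a2 were both called towards lung, at unequal sizes for the first (-4.22 and -1.25). The head-to-head collagen IV pairs Col4a1 with Col4a2, Col4a3 with Col4a4 and Col4a5 with Col4a6 held no call, and neither did Col6a4 with Col6a5. Col9a1 was called and its neighbour Col19a1 was not.

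Transcripts of genes that make, process or bind collagen were in part higher in lung too. Of 51 measured genes of collagen modification, export, processing, cross-linking, binding and reception, 16 were called towards lung, 2 towards cortex and 33 in neither direction, with a median of -0.51. These shares, 31.4% and 3.92%, stand beside 7.71% and 10.4% of all genes. Among 15 hydroxylation genes 6 were higher in lung and 0 in cortex. The largest differences were those of Crtap (-1.64, limma adjusted p = 0.0164), P3h4 (-1.61) and P3h2 (-1.59), of which Crtap and P3h2 belong to the prolyl 3-hydroxylation machinery. Of 7 folding and export genes, 1 was called, Creb3l1, a transcription factor of collagen secretion (4.97 ± 0.31 and 7.38 ± 0.61, adjusted p = 0.000846). The collagen chaperone Serpinh1 (Hsp47) lay at 10.65 ± 0.73 and 11.66 ± 0.38 without a call (adjusted p = 0.0918).

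Of 6 propeptide removal genes, 2 were higher in lung and 1 in cortex. Pcolce, which enhances the C-proteinase, was 7.42-fold higher in lung and Bmp1, the C-proteinase itself, 1.85-fold. Adamts3, an N-proteinase that also activates the lymphatic growth factor Vegfc, was 14.5-fold higher in cortex (9.88 ± 0.56 and 6.02 ± 1.60, adjusted p = 0.00648). Of 6 cross-linking genes 3 were higher in lung. They were lysyl oxidase Lox (-5.56, adjusted p = 4.61e-05), transglutaminase Tgm2 (-3.37) and peroxidasin Pxdn, which cross-links collagen IV (-1.14, adjusted p = 0.00501). Of 8 fibril-binding genes 2 were higher in lung, decorin Dcn (-1.64) and Lum (-0.83), while Sparc, a collagen-binding protein abundant in endothelium, lay at 13.63 ± 0.36 and 13.75 ± 0.19 (adjusted p = 0.716). Of 9 collagen receptors 2 were higher in lung, the integrin chains Itga2 (-1.69) and Itgb1 (-1.37). The collagen receptor kinase Ddr1, known from epithelia and neural cells, was 16.4-fold higher in cortex (11.58 ± 0.14 and 7.54 ± 1.04, adjusted p = 0.000423). Its relative Ddr2, of mesenchyme, had the opposite sign without a call (-1.96, adjusted p = 0.0904). After pan-endothelial scaling, 3 machinery genes were called towards lung and 6 towards cortex, where 0.781% and 20.4% of all genes were. Leaving out cortex 72 and 18 gave 10 calls towards lung, beside 3.47% of all genes.

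Several probe sets were present for 27 of the 42 collagens. Of 40 probe sets that were not chosen, 5 had the opposite sign to the chosen one, in 0 cases with a call. Of 22 that belonged to a called gene, 12 were called in the same direction in the fit over all probe sets, in which 4.88% of probe sets were called towards lung and 7.28% towards cortex. In that fit 25 collagen probe sets were higher in lung and 6 higher in cortex. The chosen probe sets of Col18a1, Col25a1 and Col26a1 did not pass there, with adjusted p of 0.0532, 0.0557 and 0.0575. Col1a2 had 1 probe set with means of 5.32 in cortex and 5.87 in lung and a small difference (-0.55) beside those at -4.22 and -3.83, and Col22a1 had 1 at -0.11 beside those at 3.67 and 2.69. Both type I chains, Col3a1, Col5a1, Col6a2, Col18a1, Col23a1, Col27a1, Col22a1 and Col9a3 had at least 1 other probe set with a call in the same direction. The other probe sets of Col5a2, Col9a1, Col11a1, Col14a1, Col25a1 and Col26a1 were not called. With the probe set of median mean for each gene, these 6 lost their calls, and 13 collagens were called towards lung, 12 of them among the 17, and 3 towards cortex.

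**Figure D4:**
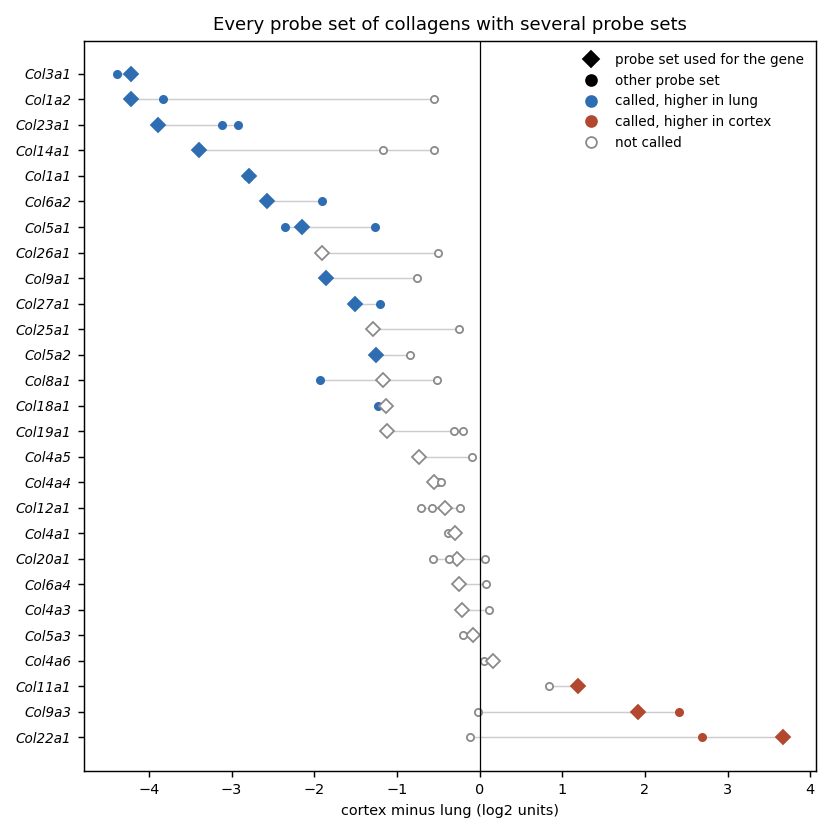
Difference between cortex and lung in log2 units for every probe set of the 27 collagens with several, with a diamond for the probe set used and a circle for the others, filled where called over all probe sets. Col3a1 shows 2 called probe sets at -4.38 and -4.22, and Col8a1 an uncalled diamond at -1.17 beside a called circle at -1.93.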

How the data were processed

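The authors deposited log2 values of 45101 probe sets on Affymetrix whole-genome mouse arrays, and the submitters' processing notes name RMA and the affy package (versions not given in the sources used here). RMA forces all arrays to the same distribution of probe values, so a difference is relative to the rest of the array, and no value carries a detection call. Per the labels' protocols, 15 to 30 ng of RNA was linearly amplified. Without the 64 control probe sets there were 45037, of which 34945 named 1 gene, 932 several and 9160 none, by the platform annotation. All 42 collagen symbols matched RefSeq by gene number, and 0 columns were left out.

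The comparison of cortex and lung used limma 3.58.1 (R 4.3.3) on the log2 values, with tissue as the only factor, no block and no filter on dim genes, Benjamini-Hochberg adjustment over 18193 genes, two-sided, and calls at an adjusted p under 0.05. The fit was tested on simulated data. Of the 42 collagens, 26 had a mean of at least 7 in the brighter tissue, and all 21 called ones were among them, so no count over those 26 is given as a result. P-values measure the spread between pooled litters. Members, classes and lists were chosen with earlier results of these data known. Genes were named by rule: all called collagens, and per class the 2 uncalled ones with the highest mean (all where 3 or fewer). Other uncalled collagens and the marker genes were named after their values were seen. From each machinery list up to 3 called genes towards each tissue were named. Serpinh1, Sparc and Ddr2 were added after their values were seen.

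Alternatives were 2 other choices of probe set, a minimum mean of 7, arrays centred on their medians, a shift that gives every array an equal mean over 26 pan-endothelial genes, the sample number as a block, array quality weights, an intensity trend with robust moderation, and leaving out arrays. The deviations of same-numbered cortex and lung arrays from their tissue means correlated at 0.33, -0.16, 0.01 and 0.31 (numbers 72, 22, 19 and 18). Without differently numbered arrays set beside them, these values cannot decide whether a number marks a shared litter. The labels do not say so, and the numbers were not used as pairs in the main fit. Promoter windows came from RefSeq (GRCm38.p6) for 33 collagens.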

Additional observations from a re-analysis of the deposited data

Results flagged for a closer look

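On 2 of 64 groups examined (32 named collagens in each tissue), 1 array stood far from the other 3 of its tissue by Dixon's criterion, which chance meets in about 1 of 20 groups. Col5a2 lay at 9.30 on cortex 18, with the other cortex arrays between 10.07 and 10.17. Col24a1 lay at 5.08 on lung 72, with the other lung arrays between 3.93 and 4.11.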

How the results depend on the processing

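The choices that moved most counts were the scaling on 26 pan-endothelial genes and leaving out cortex 72 and 18. Under the scaling, calls towards lung numbered 6 over all collagens, 3 fibrillar, 1 fibril-associated, 1 membrane, 1 beaded filament and 0 multiplexin. Machinery genes then gave 3 calls towards lung and 6 towards cortex, and collagen probe sets 11 towards lung. Over all genes the scaling gave 142 calls towards lung and 3712 towards cortex, against 1403 and 1888 on the deposited scale. Without cortex 72 and 18, calls towards lung numbered 10 over all collagens, 1 beaded filament, 0 multiplexin, 10 machinery genes and 9 probe sets, and 1 fibrillar chain was called towards cortex. With the probe set of median mean, with the mean over probe sets, and without both arrays numbered 18, 1 fibrillar chain was called towards cortex and 1 network chain towards lung. Median centring and array quality weights also gave 1 network chain towards lung, Col4a5, where 13.2% and 12.3% of all genes were called towards lung. Median centring also gave 4 membrane chains towards lung, with Col17a1 added. The probe set of median mean left 0 fibril-associated chains towards lung and 1 machinery gene towards cortex, and leaving out both arrays numbered 18 left 1 multiplexin. These causes were not tested.

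With 1 array left out at a time, calls towards lung ranged from 13 to 16 over all collagens, at 6 for fibrillar chains, from 0 to 1 for network, at 2 for fibril-associated, from 2 to 3 for membrane, from 2 to 3 for beaded filament and from 1 to 2 for multiplexin chains. Calls towards cortex ranged from 3 to 4 over all collagens and from 1 to 2 for fibrillar chains. Machinery genes ranged from 12 to 18 towards lung and from 2 to 3 towards cortex, and probe sets from 15 to 26 and from 5 to 6. The probe sets were fewest, 15, without lung 19. Called under every alternative run were Col1a2, Col3a1, Col6a1 and Col23a1 towards lung and Col2a1, Col9a3 and Col22a1 towards cortex. For those towards cortex, the pan-endothelial scaling could only raise the difference.

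With the sample number as a replicate block, 16 collagens were called towards lung and 4 towards cortex. Of the multiplexins 1 was called, since Col18a1 lost its call. Nothing in the labels says that the numbers pair samples.

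Signs turned for uncalled genes, and those named by rule are listed here. Others turned too under the pan-endothelial scaling, such as Col4a3 (0.91) and Col10a1 (0.94). This scaling moved the median of the network chains to 0.85 and that of the fibril-associated chains to 0.71. The median of all collagens moved to 0.58, where that of all genes was 1.03. The pan-endothelial scaling gave 0.96 for Col7a1, 0.87 for Col6a4, 1.07 for Col6a5, 6e-04 for Col19a1, 0.845 for Col20a1, 1.045 for Col5a3, 0.74 for Col24a1, 0.58 for Col17a1, 0.82 for Col4a1 and 0.85 for Col4a2. Without cortex 72 and 18, Col4a1 was at 0.12 and Col4a2 at 0.29. Col7a1 was at 0.0227 with array weights, Col6a4 at 0.0786 with the probe set of median mean, and Col11a2 at -0.0608 after median centring. With 1 array left out, Col6a5 ranged from -0.087 to 0.016 (without lung 18) and Col5a3 from -0.1415 to 0.0151 (without cortex 19), and Col6a5 was at 0.0263 without both arrays numbered 18. The causes were not tested.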
